A study of Mus musculus with 183 samples.

Results

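The course described here follows RNA loss over 6 h of transcription arrest in mouse embryonic stem (ES) cells of clone 5F before any gene was deleted. Its members were chosen by label, as the libraries of clone 5F at day 0, and they numbered 11 of the 47 libraries of the half-life experiment and of the 183 samples of the series. Clone 5F is a single clone that carries Rosa26Cre-ERT2/- and Skiv2lfl/fl, so that 4-hydroxytamoxifen (4OHT) can delete part of Skiv2l, but at day 0 no 4OHT had been given and Aven was intact. The 11 libraries were 3 mock libraries (0 min, DMSO for 6 h), 2 libraries after 120 min of actinomycin D (replicates 1 and 3), 3 after 240 min and 3 after 360 min. The study's methods give 5 µM actinomycin D added from a DMSO stock, and describe the replicates as technical wells, so that p-values here measure the spread between wells of 1 clone. Replicate 2 of 120 min was not analysed here. The other courses were used only for comparison: the same clone after 4 days of 0.1 µM 4OHT (clone 5F day 4), and clone 7E at day 0 and after the same 4OHT treatment (day 4). The labels give clone 7E as Rosa26Cre-ERT2/BirA-V6 with 3xFLAG-Avi tags on both Skiv2l alleles and Aven-/-, and other libraries of clone 7E are labelled as a conditional Skiv2l knockout with Aven knocked out.

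Actinomycin D binds DNA and stops RNA polymerases, so that an mRNA made before the drug can only decay after it. In the main route of cytoplasmic decay the poly(A) tail is first shortened by deadenylases, after which the cap is removed and the exonuclease XRN1 digests the body from the 5′ end, or the exosome with the SKI complex digests it from the 3′ end. Sequences in the 3′ untranslated region (3′UTR), such as AU-rich elements and sites for Pumilio proteins, are known to recruit deadenylases, and the histone mRNAs of S phase end in a stem-loop in place of a tail. These libraries were made from RNA depleted of ribosomal RNA rather than selected for poly(A), so tailless histone mRNAs were measured along with the rest.

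Short sequences of both kinds are shown first because their matches are counted by class of fall below. The histone stem-loop was searched as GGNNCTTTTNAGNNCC on the sense strand of the annotated 3′UTR, and its letters are in capitals in 1 window of 30 bases per histone family, from the GRCm38 genome: Hist1h1d, the linker histone H1, at chr13:23555780-23555809 (plus strand), Hist2h2ac, an H2A, at chr3:96220411-96220440 (minus strand), Hist1h2bb, an H2B, at chr13:23747196-23747225 (plus strand), Hist1h3b, an H3, at chr13:23752813-23752842 (plus strand), and Hist1h4f, an H4, at chr13:23551284-23551313 (minus strand).
Hist1h1d: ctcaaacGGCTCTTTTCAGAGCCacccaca
Hist2h2ac: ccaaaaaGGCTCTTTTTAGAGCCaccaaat
Hist1h2bb: acccaaaGGCTCTTTTAAGAGCCacccaca
Hist1h3b: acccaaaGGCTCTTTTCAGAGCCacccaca
Hist1h4f: tctcaaaGGCCCTTTTCAGGGCCacccact

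The AU-rich nonamer TTATTTATT is in capitals in the 3′UTRs of Fos (chr12:85477103-85477132, plus strand), an immediate early transcription factor, of Nfkbia (chr12:55489607-55489636, minus strand), the inhibitor of NF-kB, of Ppp1r15a (chr7:45522956-45522985, minus strand), which directs dephosphorylation of eIF2α, and of the kinase Pim1 (chr17:29495689-29495718, plus strand). All 4 fell by more than a log2 unit within 120 min. They are picked examples of the 446 early genes with the nonamer, which was also found in 360 late, 178 partial and 10 persistent genes.
Fos: tgttttcaatTTATTTATTaagatggattc
Nfkbia: ggaccacgttTTATTTATTgtgcttttgat
Ppp1r15a: tagtttcctaTTATTTATTtatttatttat
Pim1: tttaatgtatTTATTTATTtatttatttgg

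The Pumilio octamer TGTANATA is in capitals for Fzd6 (chr15:39037218-39037247, plus strand), a Wnt receptor, and Zfp518a (chr19:40917321-40917350, plus strand), which were among the late falls with the lowest fold changes at 360 min. Both are picked examples, and the octamer was about as common in early (30.0%) as in late genes (31.6%).
Fzd6: gtacctttataTGTAGATAtgaatttgaaa
Zfp518a: cagggctttttTGTATATAacaaaaatgta

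The 11 libraries held 24440935 to 34114250 gene counts and 80274 to 190894 counts of ERCC spike-in RNA added to the lysis buffer. The ratio of gene to ERCC counts was 333.8 to 362.9 at 0 min, 245.6 and 250.7 at 120 min, 162.6 to 226.5 at 240 min and 145.6 to 166.5 at 360 min. The median ratio fell to 71.2%, 59.8% and 47% of mock at 120, 240 and 360 min, and no library after the drug overlapped with the mock libraries. Since the spike-in went into a well and not into a counted number of cells, fewer cells and less RNA per cell cannot be told apart. Counts were scaled to these ratios, so that a scaled count keeps the unit of the mock libraries and the summed scaled counts follow the spike-in. Replicate 2 of 240 min stood apart, with a chi-square per gene of 94 and 60.6 against its replicates, where the other pairs of replicates gave 2.59 to 16.4, and with 0.243% of its counts in mitochondrial ribosomal RNA against 3.13% and 2.16%. Markers of ES cells were present throughout (10 of 10 over 1 CPM, the count after scaling each library to the same total, at 0 min, summing to 4700 to 4730). All 10 primitive endoderm markers were also over 1 CPM and summed to 1680 to 1740, while 4 of 10 fibroblast markers reached that level and summed to 13 to 13.3. Aven lay at 35.1 to 36.1 CPM at 0 min here and at 1.96 to 2.99 in clone 7E. Skiv2l lay at 147 to 148 CPM here and at 31.2 to 36.1 in clone 7E, so that the clones differed at day 0 in both genes. The value here checks only that the gene was on, since the floxed region is within the gene and counts were per gene.

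**Figure D1:**
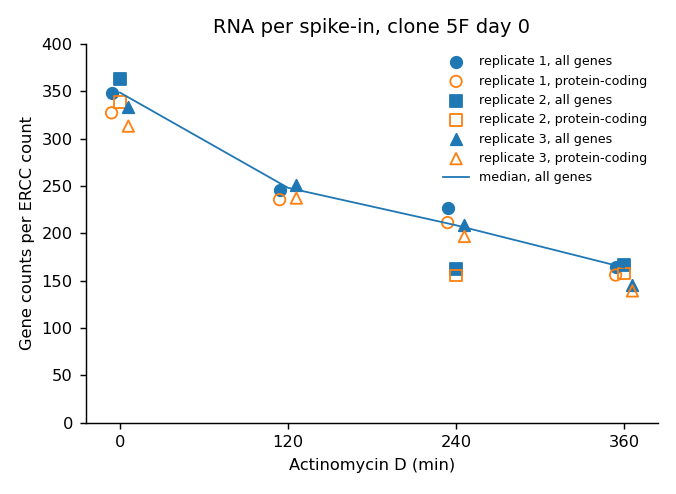
Ratio of gene counts to ERCC spike-in counts (vertical axis) in each of the 11 libraries against minutes of actinomycin D (horizontal axis), with circles, squares and triangles for replicates 1, 2 and 3, filled for all genes and open for protein-coding genes, and a line through the medians of all genes. The median fell from 348.7 at 0 min to 164 at 360 min, and replicate 2 of 240 min, at 162.6, was lower than the other libraries of that time.

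Most transcripts fell, and they did so over a wide range of rates. Of 17032 genes tested with edgeR's quasi-likelihood test (Benjamini-Hochberg adjusted p under 0.05), 11817 (69.4%) were lower at 120 min than in mock, 13827 (81.2%) at 240 min and 15184 (89.1%) at 360 min. Those higher numbered 27 (0.159%), 49 (0.288%) and 23 (0.135%). The median log2 fold change over all genes was -0.65 at 120 min, -0.88 at 240 min and -1.24 at 360 min. These directions are relative to the spike-in. With TMM scaling over the genes themselves, which measures each gene against the others, the medians moved by 0.64, 0.89 and 1.21, and 6356 genes were called lower and 5370 higher at 360 min, so that named genes with a small fall, such as Pou5f1 and Rpl4, lay above mock on that scale. The counts of higher genes depended on single libraries: without replicate 2 of 240 min 43 were higher at 120 min and 86 at 240 min, without replicate 1 or 3 of 240 min 14 and 28 at 240 min, and without replicate 2 of 360 min 15 at 360 min.

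Genes were sorted by the size of their fall at 120 and 360 min, so a late fall need not be a delayed one. An early fall was a call at 120 min with a log2 fold change of -1 or less, and 5353 genes (31.4%) met it. A late fall, not early but called at 360 min with a log2 fold change of -1 or less, was found for 5037 genes (29.6%), and a partial fall, called at 360 min but by less than 1 on the log2 scale and not early, for 4850 (28.5%). For 469 genes (2.75%) the 95% interval of the 360 min log2 fold change lay wholly above -0.5, and these persistent genes include 163 that also had a small called fall. The persistent class was the least stable, with 245 genes without replicate 1 and 262 without replicate 2 of 360 min. The remaining 1486 genes could not be placed, of which 1326 had a 0 min mean under 50 scaled counts. The share of early falls was 35.3% of the 4735 genes under 50 scaled counts at 0 min. Above that it went down with level, from 42% of genes with 50 to 200 scaled counts to 37.4%, 22.8% and 7.6% of genes with 200 to 1000, 1000 to 5000 and over 5000.

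A line fitted to the natural log of scaled counts gave a median half-life of 311 min over 13903 protein-coding genes, with quartiles at 186 and 519 min. Of these genes 9.42% had a fitted half-life under 2 h, 27% of 2 to 4 h, 35.2% of 4 to 8 h, 20.2% of 8 to 16 h and 8.2% of 16 h or more, the last group including 253 whose fitted line did not fall. A single line does not describe every gene. The rate over the first 120 min was faster than that from 120 to 360 min for 5437 genes (31.9%) and slower for 228 (1.34%). The faster genes made up 69.6% of early falls, 21.3% of late falls and 12.6% of partial falls. Of the 228 slower genes 148 were late falls, but they made up only 2.94% of late falls. Both counts rested on the libraries of 120 min: without replicate 1 they were 3367 and 92, and without replicate 3 3582 and 94. The slower genes also numbered 135 without replicate 3 of 0 min and 369 without replicate 2 of 240 min.

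**Figure D2:**
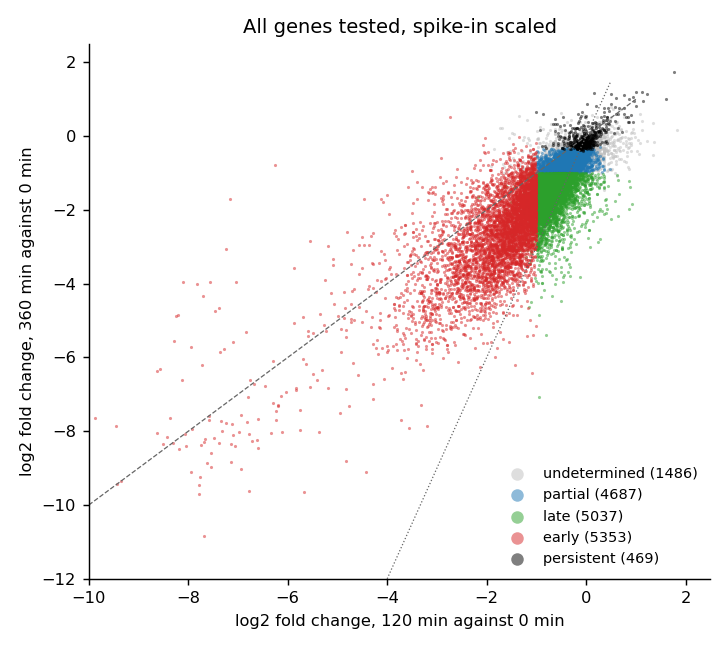
Log2 fold change against mock at 360 min (vertical axis) and at 120 min (horizontal axis) for the genes tested, coloured by class of fall, with the dashed line at equal fold changes and the dotted line at a single constant rate, under which the 360 min value is 3 times that at 120 min. Early falls lie left of -1 on the horizontal axis, the replication-dependent histones (medians -6.94 and -8.00) are among the points at lower left, and the 163 genes both partial and persistent are drawn as persistent, which leaves 4687 partial points.

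The steepest early falls were those of the replication-dependent histones, the genes that supply new nucleosomes in S phase. All 59 of the 67 listed genes that passed the low-count filter were early falls and fell faster in the first 120 min than after. Their median log2 fold changes were -6.94 at 120 min and -8.00 at 360 min, beside -0.65 and -1.24 over all genes. The 8 protein-coding genes with the lowest 120 min fold change among those with 200 or more scaled counts at 0 min were all histones (Hist1h2ad, Hist1h2ac, Hist2h2ac, Hist1h4f, Hist1h2bm, Hist1h3b, Hist1h2an and Hist1h2bb). Histone genes have near-identical copies and only uniquely mapped reads were counted, so the level of a single member is uncertain.

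Hist1h3b, which encodes H3, had 3200, 3323 and 3336 scaled counts at 0 min, 9.44 and 17.2 at 120 min, 8.16, 11.1 and 10.8 at 240 min and 5.66, 6.57 and 5.57 at 360 min. Its log2 fold change was -7.94 ± 0.15 (SE, n = 2 against 3 libraries, edgeR adjusted p = 2.55e-13) at 120 min and -9.09 ± 0.13 (n = 3 against 3, edgeR adjusted p = 3.13e-15) at 360 min. The groups did not overlap, and most of the loss was complete by the first time point. Hist1h1d, which encodes linker histone H1, went from 12849, 13766 and 13202 at 0 min to 73.8 in both libraries of 120 min and 42.4, 43 and 51.1 at 360 min. The stem-loop printed above was found in 38 of the 46 listed histones with an annotated 3′UTR (82.6%) and in 51 of 13807 protein-coding genes tested (0.369%).

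The replacement histones, which package DNA outside S phase and are made from ordinary polyadenylated mRNAs, contained no early fall among 11 genes, with 4 late and 6 partial, 1 of them also persistent. Their medians were -0.28 at 120 min and -0.95 at 360 min. H3f3b, which encodes H3.3, had 10160, 10061 and 10441 scaled counts at 0 min, 7385 and 8309 at 120 min and 3677, 3655 and 3452 at 360 min. Its log2 fold change of -0.38 ± 0.15 at 120 min (edgeR adjusted p = 0.0388) and -1.51 ± 0.14 at 360 min (edgeR adjusted p = 1.28e-07) contrasts with -7.94 and -9.09 for Hist1h3b.

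Immediate early genes and feedback regulators, which switch signalling responses on and off within minutes, were the next list by size of fall. Of 37 genes tested 33 were early (89.2%, beside 31.4% of all genes), 3 late and 1 partial. Their median was -2.40 at 120 min and -4.40 at 360 min. The AU-rich nonamer printed above was found in 8 of these 37 (21.6%) and in 7.34% of all protein-coding genes with a 3′UTR. Dusp6, the phosphatase that inactivates ERK (chr10:99263231-99267489 in GRCm38), had 4250, 4220 and 4453 scaled counts at 0 min, 332 and 316 at 120 min, 82.4, 89.1 and 81.8 at 240 min and 47.1, 57.1 and 47.6 at 360 min. No libraries of successive times overlapped, and the log2 fold change was -3.73 ± 0.09 at 120 min (edgeR adjusted p = 2.01e-12) and -6.41 ± 0.09 at 360 min (edgeR adjusted p = 2.95e-15). Fos had 84.4, 87.6 and 92.1 at 0 min and 2.58 and 7.73 at 120 min, a log2 fold change of -4.07 ± 0.31 (edgeR adjusted p = 6.26e-08). At the other end of the list Jund, an AP-1 subunit, fell by 0.93 ± 0.14 on the log2 scale at 360 min (edgeR adjusted p = 1.97e-05).

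Genes that act in or respond to Wnt, Nodal and FGF signalling held 14 early and 5 late falls among 20 tested, with medians of -1.70 and -3.82. Early falls were 70% of them, beside 31.4% of all genes, and late falls 25%, beside 29.6%. Nodal, the ligand that keeps its own pathway active, had 1878, 1933 and 1964 scaled counts at 0 min, 207 and 242 at 120 min and 34.4, 30.8 and 32.4 at 360 min. The log2 fold change of Nodal at 120 min was -3.10 ± 0.09 (edgeR adjusted p = 1.18e-11). That of Spry2, an inhibitor of FGF signalling, was -3.13 ± 0.11 (edgeR adjusted p = 9.84e-11). Skil, a repressor of SMAD proteins, stood at -1.42 ± 0.06 at 120 min and -2.90 ± 0.06 at 360 min (edgeR adjusted p = 4.58e-10 and 2.12e-14).

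Among inhibitors and targets of NF-kB 9 of 12 were early, and among Myc and Pim family genes 7 of 12, where 31.4% of all genes were. Pim3, a kinase that promotes translation and survival, had 4258, 4494 and 4365 scaled counts at 0 min, 451 and 494 at 120 min and 78.7, 84.4 and 76.4 at 360 min. Its log2 fold change was -3.21 ± 0.10 at 120 min (edgeR adjusted p = 3.75e-11) and -5.77 ± 0.10 at 360 min (edgeR adjusted p = 1.22e-14). Mycn, the Myc protein of early embryonic cells, went from 7325, 7912 and 7361 through 2346 and 2815, then 1663, 1258 and 1261, to 472, 460 and 384. It fell at close to 1 rate, the difference between its early and late rates being -0.13 log2 per h (edgeR adjusted p = 0.265) and its fitted half-life 90.4 min.

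The C2H2 zinc finger genes, most of them transcription factors of which many silence retrotransposons, were the largest list with an early fall. Of these, 290 of 341 tested were early (85.0%, beside 31.4% of all genes), 41 late and 9 partial. Their median was -1.88 at 120 min and -3.19 at 360 min. Zfp39 had 394, 386 and 385 scaled counts at 0 min, 18.9 and 32.6 at 120 min and 6.13, 4.04 and 4.56 at 360 min, with no overlap between times. The exceptions included Zfp106, which fell by 0.68 ± 0.06 on the log2 scale at 360 min (edgeR adjusted p = 8.39e-08), and Zfp277, which fell by 0.57 ± 0.10 (edgeR adjusted p = 1.21e-04).

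Host genes of small nucleolar RNAs carry the snoRNA in their introns while the spliced RNA is short-lived. Of 17 such genes 12 were early (70.6%, beside 31.4% of all genes), with medians of -1.34 and -2.40. Gas5 had 11001, 10086 and 10242 scaled counts at 0 min, 3370 and 3131 at 120 min and 1621, 1654 and 1819 at 360 min. Its log2 fold change of -1.68 ± 0.12 at 120 min (edgeR adjusted p = 3.53e-08) compares with a value at 360 min of -2.62 ± 0.11 (edgeR adjusted p = 1.67e-11). Its rate was faster in the first 120 min (edgeR adjusted p = 7.05e-05).

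**Figure D3:**
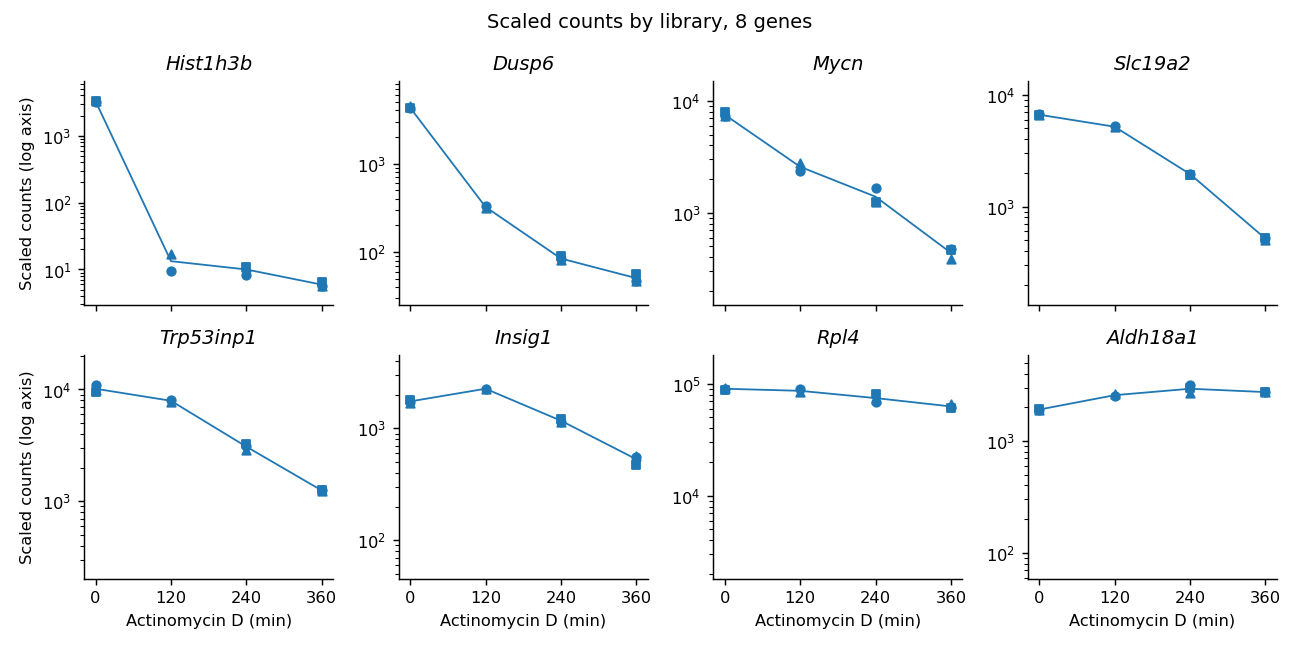
Scaled counts on a log axis against minutes of actinomycin D for 8 genes, 1 panel each, with circles, squares and triangles for replicates 1, 2 and 3 and a line through the means. Hist1h3b and Dusp6 lost most of their RNA by 120 min, and Mycn was lower at each successive time. Slc19a2 and Trp53inp1 lost less RNA per hour before 120 min than after, and Insig1 was higher at 120 min before it fell. Rpl4 fell little, and Aldh18a1 was higher at every time than in mock.

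Late falls with some of the lowest log2 fold changes at 360 min were Bbc3, the BH3-only apoptosis inducer PUMA (-4.02), Fzd6 (-3.80), the thiamine transporter Slc19a2 (-3.68), the transcription repressor Msc (-3.68), Zfp518a (-3.61), Dennd2c (-3.60) and Rev1, a translesion DNA polymerase (-3.50). These 7 were called slower in the first 120 min than after, an order that the choice of genes with a small fall at 120 min and a large one at 360 min favours. Slc19a2 had 6736, 6634 and 6538 scaled counts at 0 min, 5206 and 5154 at 120 min, 1965, 1918 and 1976 at 240 min and 527, 525 and 500 at 360 min. The log2 fold change was -0.36 ± 0.06 at 120 min (edgeR adjusted p = 7.17e-05) and -3.68 ± 0.06 at 360 min (edgeR adjusted p = 5.31e-15). The loss per hour was 0.65 log2 smaller in the first 120 min than after (edgeR adjusted p = 5.86e-08).

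The 4 genes with 200 or more scaled counts and the largest such delay were Insig1, Npr3, Slc19a2 and Msmo1. Insig1, which retains the sterol sensor of the endoplasmic reticulum, had 1726, 1805 and 1695 scaled counts at 0 min, 2265 and 2258 at 120 min, 1149, 1215 and 1152 at 240 min and 551, 474 and 566 at 360 min. Both libraries of 120 min were above all mock libraries, with a log2 fold change of 0.38 ± 0.08 (edgeR adjusted p = 6.85e-04), before a fall to -1.72 ± 0.07 at 360 min (edgeR adjusted p = 2.58e-11). Msmo1, an enzyme of cholesterol synthesis, had 2350, 2194 and 2433 at 0 min, 2580 and 2455 at 120 min and 556, 528 and 526 at 360 min, with a log2 fold change of 0.11 ± 0.10 at 120 min (edgeR adjusted p = 0.326) and -2.12 ± 0.10 at 360 min (edgeR adjusted p = 5.13e-11). Npr3, which clears natriuretic peptides, was not distinguishable from mock at 120 min (0.07 ± 0.12, edgeR adjusted p = 0.635) and at -2.55 ± 0.12 by 360 min (edgeR adjusted p = 1.06e-10).

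Targets of p53, the tumour suppressor that answers DNA damage, were mostly late. Of 18 tested 13 were late (72.2%, beside 29.6% of all genes), 4 early and 1 partial. Their median was -0.59 at 120 min, above the -0.65 of all genes, and -2.54 at 360 min, below the -1.24 of all genes. Of the 18, 8 were slower in the first 120 min than after and 2 faster, where 1.34% and 31.9% of all genes were. Trp53inp1, which promotes p53 activity, had 10951, 9538 and 9955 scaled counts at 0 min, 8074 and 7769 at 120 min, 3115, 3273 and 2854 at 240 min and 1253, 1255 and 1241 at 360 min. Ccng1, cyclin G1, kept 12300 and 11812 of its 16044, 14468 and 15533 scaled counts at 120 min and 3293, 3328 and 3392 at 360 min.

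The difference in rate was 0.49 log2 per h for Trp53inp1 (edgeR adjusted p = 7.69e-06) and 0.29 for Ccng1 (edgeR adjusted p = 0.00125). The lowest target was Plk2, a kinase of centriole duplication, with 2796, 2555 and 2811 scaled counts at 0 min, 1320 and 1284 at 120 min and 64.1, 63.7 and 68.3 at 360 min. It met the bound of an early fall, as did Mdm2, the ubiquitin ligase of p53, and both were still faster after 120 min than before. The highest was Bax, a pore-forming apoptosis protein, which fell by 0.87 ± 0.06 on the log2 scale at 360 min (edgeR adjusted p = 4.48e-09). The counts of slower genes carry the dependence on the 120 min libraries given above.

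Naive pluripotency regulators were spread over the classes, with 7 early, 11 late and 7 partial among 25 and medians of -0.40 and -1.31. These shares of 28%, 44% and 28% stood beside 31.4%, 29.6% and 28.5% of all genes. Pou5f1, the master regulator OCT4, had 28923, 29751 and 29587 scaled counts at 0 min, 28506 and 25647 at 120 min, 25171, 28687 and 23160 at 240 min and 22121, 20764 and 22906 at 360 min. The libraries of 360 min lay below all mock libraries, with a log2 fold change of -0.42 ± 0.07 (edgeR adjusted p = 1.03e-04). Klf2, a Krüppel-like factor of the same network, had 1639, 1904 and 1833 at 0 min, 218 and 238 at 120 min and 41, 32.3 and 36.4 at 360 min, a log2 fold change of -5.61 ± 0.17 (edgeR adjusted p = 8.55e-13).

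Sox2 and Nanog, chosen after their values were seen, lay between them. The log2 fold change of Sox2 was -2.05 ± 0.07 at 120 min and -4.38 ± 0.07 at 360 min (edgeR adjusted p = 9.17e-11 and 7.23e-15). That of Nanog was -0.80 ± 0.05 and -1.52 ± 0.05 (edgeR adjusted p = 2.46e-08 and 1.64e-12). Lin28a, which blocks let-7 processing, was among the partial falls at -0.88 ± 0.05 at 360 min (edgeR adjusted p = 6.04e-10). The fitted half-lives were 885 min for Pou5f1 and 83 min for Sox2, whose proteins bind DNA as partners.

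The mitosis list was mostly late (16 of 25, or 64%, beside 29.6% of all genes, with 8 partial and 1 early). The DNA replication list was divided, with 14 partial (50%, beside 28.5% of all genes), 10 late (35.7%) and 4 early among 28. Aurka, the mitotic kinase, was the early one, with 5927, 6600 and 6436 scaled counts at 0 min, 2765 and 3085 at 120 min and 1142, 1170 and 1005 at 360 min. Cdt1, which loads the replicative helicase, fell by 3.62 ± 0.12 on the log2 scale at 360 min (edgeR adjusted p = 1.88e-12), while Mcm3, a subunit of that helicase, fell by 0.93 ± 0.05 (edgeR adjusted p = 5.61e-10). Splicing factors of the SR family were 8 late (72.7%, beside 29.6% of all genes), 2 partial and 1 early among 11.

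The mRNAs of the decay machinery itself were spread over the classes. Deadenylases and destabilizing factors were 5 early, 10 late and 7 partial among 22, exosome subunits 3, 3 and 9 among 15, and XRN1 with decapping factors 3, 4 and 4 among 11. The early shares of these lists were 22.7%, 20.0% and 27.3%, beside 31.4% of all genes. Tob2, which bridges poly(A)-binding protein to deadenylases, went from 474, 601 and 556 scaled counts at 0 min to 103 and 116 at 120 min and 25, 27.3 and 22.3 at 360 min. The scaffold of the deadenylase, Cnot1, fell by 0.86 ± 0.07 on the log2 scale at 360 min (edgeR adjusted p = 3.58e-08). Dcp1a, a decapping activator, fell by 2.96 ± 0.09 (edgeR adjusted p = 9.65e-13) and Dcp2, the decapping enzyme, by 0.71 ± 0.06 (edgeR adjusted p = 3.14e-08).

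Of the SKI complex and its partners 5 of 7 were partial (71.4%, beside 28.5% of all genes). Skiv2l, its helicase, had 4409, 4404 and 4459 scaled counts at 0 min, 3980 and 3647 at 120 min and 2568, 2455 and 2692 at 360 min, a log2 fold change of -0.78 ± 0.08 (edgeR adjusted p = 5.46e-07). Aven had 1067, 1077 and 1058 at 0 min and 745, 735 and 774 at 360 min, a log2 fold change of -0.51 ± 0.07 (edgeR adjusted p = 5.46e-06), and its groups did not overlap. Pelo, which splits stalled ribosomes and is the early member, had 234, 250 and 230 at 0 min, 54.1 and 69.5 at 120 min and 16, 16.2 and 14.7 at 360 min.

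Housekeeping lists made up the slow end. Nuclear-encoded respiratory chain genes were partial in 71 of 75 (median -0.14 at 120 min and -0.52 at 360 min) and proteasome subunits in 38 of 42 (-0.22 and -0.63). Partial falls also made up translation factors and other mRNAs with a 5′ terminal oligopyrimidine tract in 16 of 19 (-0.19 and -0.67), cytoskeleton genes in 16 of 19 (-0.28 and -0.78) and glycolysis genes in 14 of 18 (-0.21 and -0.43). All medians at 360 min lay above the -1.24 of all genes. Their partial shares ran from 77.8% (glycolysis) to 94.7% (respiratory chain), beside 28.5% of all genes. Rpl4, of the large ribosomal subunit, had 90333, 88333 and 92488 scaled counts at 0 min, 89313 and 83870 at 120 min, 69468, 81606 and 72637 at 240 min and 61740, 61047 and 65597 at 360 min. Its 120 min libraries were not distinguishable from mock (-0.06 ± 0.07, edgeR adjusted p = 0.452) and its 360 min log2 fold change was -0.53 ± 0.06 (edgeR adjusted p = 2.65e-06).

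Cytosolic ribosomal protein genes were 54 partial (63.5%, beside 28.5% of all genes), 19 early (22.4%, beside 31.4%) and 11 late of 85. Many of them have processed pseudogenes. Only uniquely mapped reads were counted, and the part of this in the values was not tested. Of the 58 with 1000 or more scaled counts at 0 min 50 were partial and 4 early, with a median of -0.64 at 360 min, and of the 27 below that level 4 were partial and 15 early, with a median of -1.87. Rpl24, with 40.1 to 63.1 scaled counts at 0 min and 1.01 to 2.02 at 360 min, and Gapdh, with 1580 to 1754 and 108 to 118, have such pseudogenes too. Mitochondrial ribosomal protein genes fell further, at a median of -1.0, with 35 late and 38 partial of 76 (46.1% and 50.0%, beside 29.6% and 28.5% of all genes).

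Of 20 chaperones of the endoplasmic reticulum 15 were called faster in the first 120 min, where 31.9% of all genes were, a call that rests on the 120 min libraries as given above. All 20 were lower at each time, beside 69.4%, 81.2% and 89.1% of all genes. Hspa5, the chaperone BiP, had 34524, 32070 and 35536 scaled counts at 0 min, 19489 and 18112 at 120 min, 12688, 15638 and 14389 at 240 min and 10339, 10719 and 11450 at 360 min. Its log2 fold change was -0.86 ± 0.09 at 120 min (edgeR adjusted p = 1.04e-06) and -1.65 ± 0.08 at 360 min (edgeR adjusted p = 7.58e-11). Calr and Pdia4 of the same compartment stood at -0.80 ± 0.05 and -0.57 ± 0.07 at 360 min (edgeR adjusted p = 2.70e-09 and 3.43e-06).

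**Figure D4:**
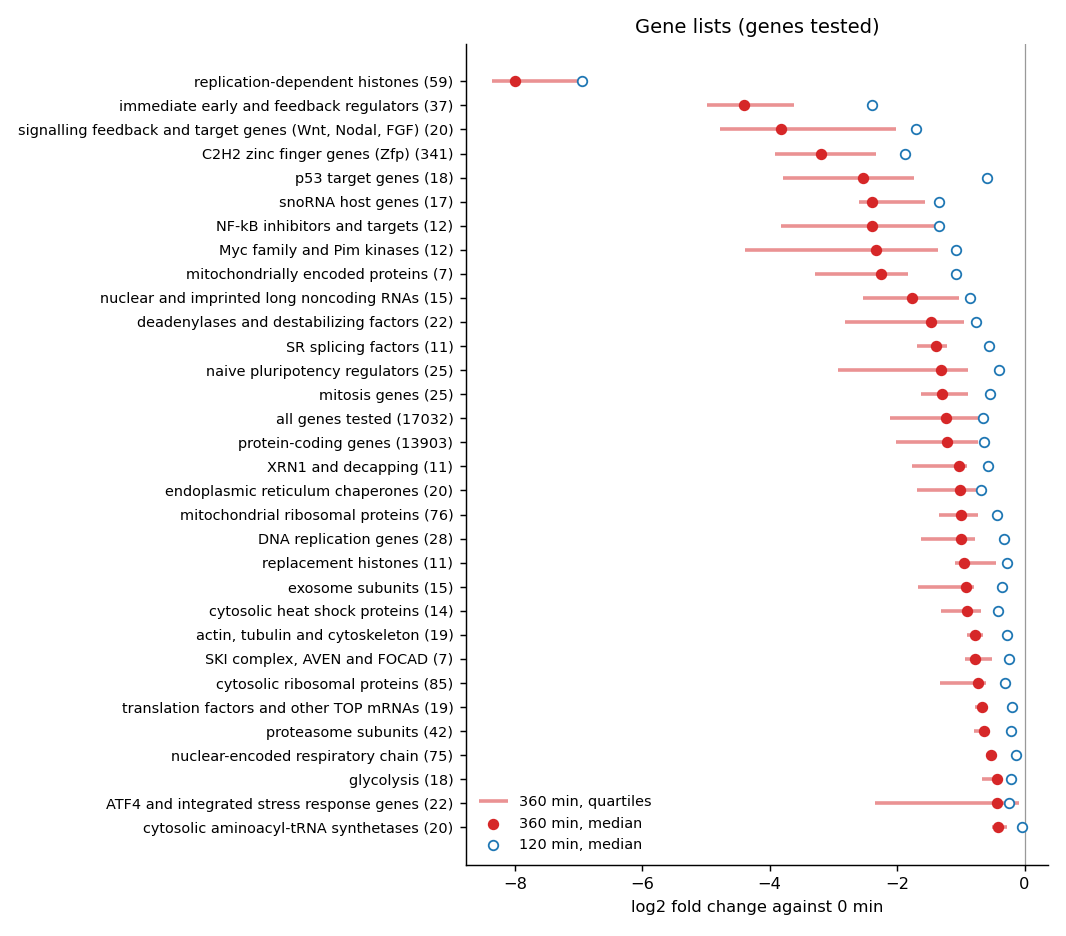
Median log2 fold change against mock at 120 min and at 360 min (horizontal axis) for each gene list, with bars from the lower to the upper quartile of its tested members at 360 min and all genes tested for reference. Replication-dependent histones lie at -6.94 and -8.00, immediate early genes at -2.40 and -4.40, and aminoacyl-tRNA synthetases at -0.04 and -0.41, all relative to the spike-in.

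Few transcripts were persistent, a class set by the 360 min interval among genes without an early fall. Among persistent genes with 200 or more scaled counts at 0 min, the 8 highest were led by Slc1a4, a neutral amino acid transporter (0.65). After it came Aldh18a1, the first enzyme of proline synthesis (0.52), Mthfd2, of mitochondrial folate metabolism (0.31), and Pck2 (0.29). The others were Cpne5 (0.23), Gpt2, the mitochondrial alanine aminotransferase (0.22), Prpf40b (0.20) and Zranb3 (0.15). Each of these values is a log2 fold change with an edgeR adjusted p under the threshold. With each library's own spike-in scaling the calls of Slc1a4, Aldh18a1 and Mthfd2 held and the other 5 were lost. The edgeR adjusted p was then 0.122 for Pck2, 0.276 for Cpne5, 0.202 for Gpt2, 0.381 for Prpf40b and 0.35 for Zranb3. Cpne5, Prpf40b and Zranb3 were also lost under the study's written order of scaling (edgeR adjusted p of 0.0853, 0.145 and 0.209) and with a factor from all 4 courses (0.091, 0.155 and 0.226), and Prpf40b and Zranb3 with no low-count filter (0.0644 and 0.12) or with the replicate block (0.0637 and 0.0521). All 5 were lost without replicate 1 of 360 min, and all but Pck2 without replicate 2 of 360 min or replicate 3 of 0 min. Cpne5, Prpf40b and Zranb3 were lost without replicate 1 of 0 min, Prpf40b and Zranb3 without replicate 3 of 360 min, and Zranb3 without replicate 1 of 120 min. Of all 23 genes higher at 360 min, 22 were protein-coding, 17 were also higher at 240 min, 5 were also higher at 120 min and 4 were lower at 120 min.

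Aldh18a1 had 1878, 1947 and 1900 scaled counts at 0 min, 2512 and 2620 at 120 min, 3145, 2967 and 2673 at 240 min and 2747, 2731 and 2723 at 360 min, so that every library after the drug was above all mock libraries (0.52 ± 0.06 at 360 min, edgeR adjusted p = 2.89e-06). Slc1a4 (285, 316 and 323 at 0 min) was lower at 120 min (155 and 154, log2 fold change -1.0 ± 0.10, edgeR adjusted p = 8.61e-07) and then higher at 240 min (449, 416 and 414) and at 360 min (517, 468 and 466, log2 fold change 0.65 ± 0.08, edgeR adjusted p = 2.63e-06). Mthfd2 and Gpt2 had the same order of signs, at -0.32 ± 0.06 and -0.25 ± 0.08 at 120 min (edgeR adjusted p = 3.40e-04 and 0.0109) and 0.31 ± 0.05 and 0.22 ± 0.07 at 360 min (edgeR adjusted p = 7.64e-05 and 0.00692). The sizes of these values rest on the scale set by the spike-in. TMM scaling, which does not use it, moved the median log2 fold change at 360 min upward by 1.21.

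The list of ATF4 and integrated stress response genes, which the cell uses when amino acids are short or proteins misfold, was divided. Of 22 genes 8 were early, 2 late and 8 persistent, and 5 were partial (2 of them also persistent). The early share of 36.4% was near the 31.4% of all genes, while the persistent share of 36.4% stood beside 2.75%. Higher at 360 min were 3 (13.6%, beside 0.135% of all genes). The list had a median of -0.25 at 120 min and -0.43 at 360 min. Atf4 itself, chosen after its values were seen, had 3878, 3810 and 3815 scaled counts at 0 min, 1122 and 1178 at 120 min and 362, 297 and 296 at 360 min (-3.59 ± 0.09, edgeR adjusted p = 1.42e-13). Ppp1r15a had 945, 977 and 922 at 0 min and 33.9, 41.4 and 31.4 at 360 min (-4.73 ± 0.11, edgeR adjusted p = 9.45e-14). Psat1, of serine synthesis, had 11736, 11379 and 11941 at 0 min and 10438, 10537 and 10320 at 360 min (-0.16 ± 0.08, edgeR adjusted p = 0.0553). Psat1 was called lower with each library's own spike-in scaling (edgeR adjusted p = 0.0414), the study's written order of scaling (0.0112), a factor from all 4 courses (0.0103) and no low-count filter (0.0261). It was also called without replicate 2 or 3 of 240 min (0.00264 and 0.0306) or replicate 1 or 2 of 360 min (0.0247 and 0.0198). Nupr1, a small stress-induced chromatin protein, had 94.1, 102 and 99.6 at 0 min and 192, 205 and 208 at 360 min (1.03 ± 0.13, edgeR adjusted p = 3.91e-06).

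Cytosolic aminoacyl-tRNA synthetases, which charge tRNAs and of which several are known ATF4 targets, held 19 partial falls of 20, and 6 of the 20 were persistent. Their median was -0.04 at 120 min and -0.41 at 360 min. Gars, for glycine, had 17577, 17309 and 17728 scaled counts at 0 min, 18006 and 17314 at 120 min and 13343, 13470 and 13678 at 360 min, so that it overlapped with mock at 120 min and not at 360 min (-0.38 ± 0.06, edgeR adjusted p = 2.47e-05). Farsa, for phenylalanine, fell furthest, by 0.82 ± 0.06 (edgeR adjusted p = 4.48e-09).

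Noncoding RNAs were described by biotype. Of 401 long intergenic noncoding RNAs 216 were early (53.9%, beside 31.4% of all genes), with a median of -1.64 at 360 min. The 303 antisense RNAs had a median of -1.89. The sources used here do not state that counting used strand, so values of antisense RNAs are uncertain where they overlap a partner gene. Processed pseudogenes, 1122 of them, stood at a median of -0.65. Among the most abundant, Gm26917 (chr17:39843013-39846341 in GRCm38) had 475247, 597655 and 519024 scaled counts at 0 min, 31458 and 34478 at 120 min and 10736, 10123 and 10303 at 360 min, a log2 fold change of -5.67 ± 0.14 (edgeR adjusted p = 1.80e-13). Which RNA gave the counts of this annotated gene was not tested, so its fall need not be that of a long noncoding RNA. The RNA polymerase III product Rn7sk, which holds the elongation factor P-TEFb inactive, had 252197, 248156 and 216558 at 0 min, 214452 and 241715 at 120 min and 163822, 176358 and 187085 at 360 min, a log2 fold change of -0.44 ± 0.09 (edgeR adjusted p = 4.55e-04). Malat1, a nuclear speckle RNA, stood at -0.47 ± 0.11 (edgeR adjusted p = 1.29e-03) and Tug1 at -2.06 ± 0.07 (edgeR adjusted p = 1.44e-12).

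Transcripts of the mitochondrial genome are made by a different polymerase on a DNA that actinomycin D also binds. Of 13 listed genes 7 were tested, and these 7 were lower at every time, with medians of -1.08 and -2.25 (4 early and 3 late). Only uniquely mapped reads were counted, and the part of this in the values was not tested. mt-Co1, of complex IV, had 101098, 98223 and 117714 scaled counts at 0 min, 77903 and 81650 at 120 min and 41456, 42400 and 43391 at 360 min. The complex I gene mt-Nd1 had 55944, 56610 and 60473 at 0 min and 4743, 4869 and 3821 at 360 min. Their log2 fold changes at 360 min were -1.32 ± 0.08 and -3.69 ± 0.15 (edgeR adjusted p = 8.80e-10 and 1.70e-11). The nuclear-encoded subunits of the same complexes had a median of -0.52. The ribosomal mt-Rnr2 varied from 38979 to 484360 among the libraries of 240 min alone and was not placed. Without replicate 2 of 240 min its log2 fold change of -0.69 at 360 min had an edgeR adjusted p of 0.0265.

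The classes differed in features that played no part in defining them, given here as descriptions over protein-coding genes, with genes both partial and persistent counted as persistent. The median number of exon junctions per kb of coding sequence was 3.95 in early, 6.45 in late, 7.51 in partial and 7.35 in persistent genes, with 6.41 over all. Median 3′UTR length was 1240, 1240, 746 and 581 bases. The AU-rich pentamer ATTTA was found in the 3′UTR of 73.6% of early, 72.6% of late, 58.4% of partial and 52.4% of persistent genes and 66.7% of all. The nonamer TTATTTATT, which contains it, was found in 11.0%, 8.29%, 4.17% and 2.31% (7.34% of all). The Pumilio octamer was found in 30.0%, 31.6%, 15.8% and 11.5% (24.6% of all). The 3′UTRs were of unequal length and only the sense strand was searched, so longer ones hold more matches of any motif. Per kb of 3′UTR the median number of ATTTA was 1.45 in early, 1.44 in late, 0.884 in partial and 0.517 in persistent genes (1.22 over all). The part of length in the shares with a motif was not tested. Over 9472 genes with 200 or more scaled counts at 0 min Spearman's rho with the fitted decay rate was -0.457 for junctions per kb and 0.248 for 3′UTR length, and these points share the same 11 libraries.

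The deposited table of crosslinking data (CRAC, in which a tagged protein is crosslinked to RNA in the cell and the bound RNA sequenced) gives for each mRNA the share of reads of 3 decay factors, the nuclear exosome helicase MTR4, SKIV2L and XRN1. Values were present for 7229 tested genes. Among protein-coding genes they covered 1762 of 4104 early, 2534 of 4366 late, 2696 of 4274 partial and 196 of 434 persistent genes. The median share of SKIV2L was 18.3% in early, 25.8% in late, 35.7% in partial and 33.3% in persistent genes (26.8% over all), and that of MTR4 40.0%, 32.5%, 26.9% and 30.7% (31.9% over all). XRN1 stood at 36.3%, 36.2%, 31.0% and 28.3%. Since the 3 shares of a gene sum to 100%, they cannot vary independently. Spearman's rho with the decay rate over 6969 genes was -0.390 for SKIV2L, 0.221 for MTR4 and 0.180 for XRN1. The study describes histone mRNAs, the steepest early falls here, as abundantly bound by SKIV2L.

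**Figure D5:**
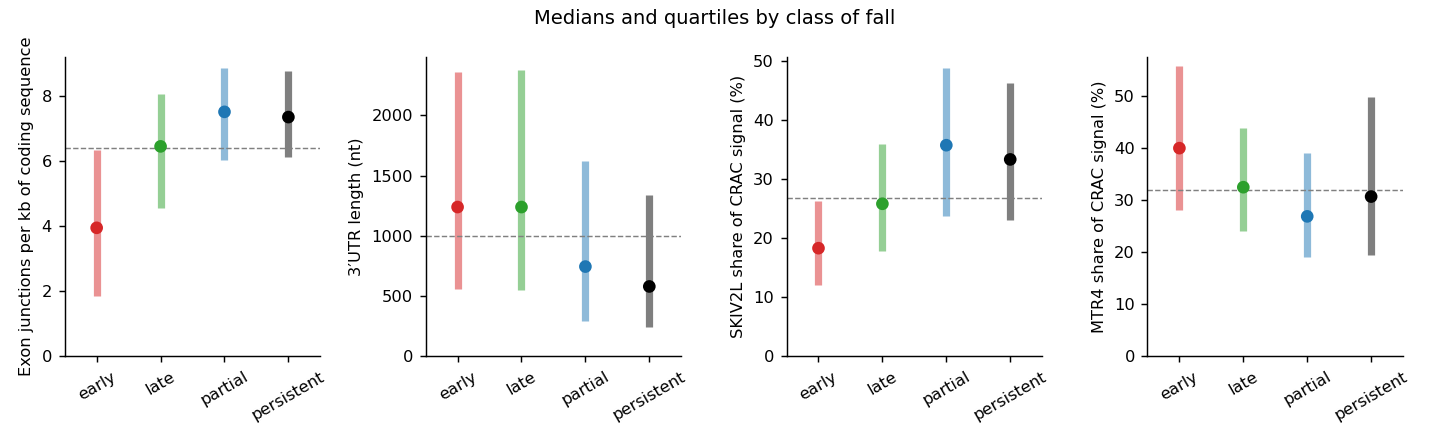
Medians with lower and upper quartiles of exon junctions per kb of coding sequence, 3′UTR length in bases, and the shares of SKIV2L and MTR4 crosslinking reads in percent (vertical axes) for protein-coding genes of the 4 classes (horizontal axis), with a dashed line at the median of all protein-coding genes tested. Early genes have the lowest median of junctions (3.95) and of the SKIV2L share (18.3%) and the highest of the MTR4 share (40.0%), and the quartile ranges of neighbouring classes overlap.

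The course was then set beside 2 others by a test of the difference in 360 min fold change over 18623 genes. Against the Aven-/- clone 7E at day 0, 113 genes (0.607%) stood lower in clone 5F and 327 (1.76%) higher, and each genotype is a single clone, so clone and genotype cannot be told apart. The counts were small and unstable, at 440 in all, 34 when each library was scaled to its own spike-in, and 243, 178, 229, 264 and 251 without replicate 1 or 3 of 0 min or replicate 1, 2 or 3 of 360 min. The replication-dependent histones had 360 min medians of -8.01 here and -8.06 in clone 7E, and 3 were called lower and 2 higher here. Their 120 min medians were -6.94 and -5.81, a difference that was not tested.

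Against the same clone after 4 days of 4OHT, 89 genes (0.478%) stood lower at day 0 and 495 (2.66%) higher. Here too the total of 584 was 78 with each library's own spike-in scaling, and 290, 196 and 192 without replicate 3 of 0 min or replicates 1 and 2 of 360 min. The histones were the exception in size: 45 of 59 fell further at day 0 and 2 less, at a median of -8.01 here and -4.85 at day 4. The 45 were 42 with each library's own spike-in scaling and 42 to 44 with 1 library of this course left out, and the 2 were 0 and 1 without replicates 1 and 2 of 360 min. The day 4 libraries held 253 to 301 histone counts per 100 ERCC counts at 0 min, 53.8 to 65.3 at 120 min and 14.0 to 19.4 at 360 min, against 150 to 179, 1.74 to 1.99 and 0.698 to 0.813 at day 0. No library of the 2 courses overlapped at the same time. For Hist1h3b the difference was -2.53 ± 0.20 and for Hist1h1d -4.27 ± 0.17 (log2 at 360 min).

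ATF4 and integrated stress response genes differed in the opposite direction, with 12 of 22 higher at day 0 and none lower, and medians of -0.43 at day 0 and -1.79 at day 4. The difference was 0.88 ± 0.08 for Aldh18a1, 1.05 ± 0.06 for Mthfd2 and 1.47 ± 0.11 for Slc1a4, which is not a member of that list. For these genes and for Pck2 and Gpt2 the 360 min value was above mock at day 0 and below mock at day 4 (-0.36, -0.74, -0.82, -0.66 and -0.72). The 12 were 8 under own spike-in scaling and 11 to 13 with a library left out. For the aminoacyl-tRNA synthetases 12 of 20 were called higher at day 0, but 2 were under own spike-in scaling, and 6 and 5 without replicate 1 or 2 of 360 min. Deletion of Skiv2l, 4OHT and the extra days of culture differ together between the courses and cannot be told apart.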

How the data were processed

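RNA was depleted of ribosomal RNA and made into libraries with a TruSeq kit, and the authors aligned reads with STAR to GRCm38 (mm10) with the ERCC sequences added, keeping uniquely mapped reads. The deposited values are raw counts per gene and spike-in, with 17032 genes passing edgeR's filterByExpr. The authors' crosslinking table gives the ratio of each protein's counts to the sum over 3 proteins per mRNA, after scaling the pooled datasets of each protein to the same sum. A deposited table of the authors' half-lives was not used, since these were fitted again from the counts.

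Libraries of 1 time were scaled to each other by DESeq2 size factors and each time by the median ratio of gene to ERCC counts, over 34 ERCC sequences with a mean over 50 counts. Differences were tested with edgeR's quasi-likelihood test (edgeR 4.0.16, R 4.3.3) with time as a factor and Benjamini-Hochberg adjustment over all genes tested at 0.05, as fold changes ± SE. The contrast of early and late rates was the log2 change per hour over 0 to 120 min minus that over 120 to 360 min. Differences between courses were interaction contrasts over all 47 libraries. Half-lives came from ordinary least squares on ln(scaled count + 1) and are descriptions. Counts were simulated for 17214 genes of the 360 min comparison. They had a single fixed spread for all genes and only sampling noise in the spike-in. Both sets of 50 genes made to fall by 2 and by 3 log2 at 360 min were called lower in 100% of cases. Of 50 made not to fall 90% were persistent and 6% called higher. These shares need not hold in the real libraries.

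Genes were named by rule: among protein-coding genes with 200 or more scaled counts at 0 min, the 8 lowest early, 8 lowest late and 8 highest persistent genes and the 4 largest rate differences each way, then in each list up to 3 of the highest level and the lowest and highest at 360 min, the genes the study names, and the 4 most abundant noncoding genes. Of the genes so named, 1 is not reported here. The libraries, gene lists and tests were chosen with earlier results of these data known. Alternatives were other scalings (own ERCC, TMM, all ERCC, DESeq2 1.42.0, limma 3.58.1), filters, fold bounds, a replicate block and leaving out each library. Every replicate pair differed by more than sampling noise (chi-square per gene of 2.59 or more). Each library held 24440935 or more gene counts, but the precision also rests on that spread between replicates. The 3′UTRs came from Gencode transcripts, and each printed window was checked base for base against RefSeq's GRCm38 genome.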

Additional observations from a re-analysis of the deposited data

Results flagged for a closer look

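For 440 genes the 360 min fall differed from that in clone 7E at day 0 by the test of the difference itself, and for 584 from that in clone 5F after 4 days of 4OHT (edgeR's quasi-likelihood test, Benjamini-Hochberg adjusted p under 0.05 over 18623 genes). The values below are the 360 min log2 fold change of clone 5F at day 0 minus that of the other course.

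Against clone 7E at day 0 the difference was 1.92 for Aven, which is at 1.96 to 2.99 CPM in that clone, 0.57 for Prpf40b and 0.31 for Zranb3. It was -0.70 for Msmo1, -0.55 for Pim1, -0.52 for Fzd6, -0.45 for Atf4 and -0.29 for Slc19a2, which therefore stood lower at day 0 of clone 5F.

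Against clone 5F at day 4 the histones stood lower here, with differences of -5.37 for Hist1h2bb, -4.69 for Hist1h2bm, -4.27 for Hist1h1d, -3.85 for Hist1h4f, -2.53 for Hist1h3b, -2.40 for Hist1h2ac and -2.32 for Hist2h2ac. Several of these members had under 10 scaled counts in the libraries after the drug. Dusp6 (-0.51), Hspa5 (-0.48) and Trp53inp1 (-0.43) also stood lower here.

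Named genes that stood higher here than at day 4 did so by 1.47 for Slc1a4, 1.41 for Nupr1, 1.05 for Mthfd2, 0.96 for Pck2, 0.94 for Gpt2, 0.88 for Aldh18a1 and 0.53 for Psat1. The differences of Cpne5 (0.56), Gars (0.39), Nanog (0.27) and Lin28a (0.20) were in the same direction.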

How the results depend on the processing

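Alternatives for the 2 differences between courses were chosen after seeing the data. Scaling each library to its own ERCC total, which lets the spread of the spike-in enter the error, left 18 genes higher at 240 min, 13 higher at 360 min, 226 persistent, 3220 faster and 84 slower in the first 120 min, and 34 and 78 different from clone 7E day 0 and clone 5F day 4. The order of steps as the study writes it, with depth between times left in, gave 5 genes higher at 120 min, 14 higher at 240 min, 10961 faster and 60 slower. With TMM scaling 4802, 5722 and 6356 genes were lower and 3793, 5088 and 5370 higher at 120, 240 and 360 min, 2271 early, 1913 late, 2320 partial and 9064 persistent, 2701 faster and 2353 slower, and 181 different from clone 5F day 4. A time factor taken as the median over the 4 courses gave 311 persistent genes. DESeq2 called 11 higher at 120 min. With no low-count filter 1978 were persistent, and with a mean of at least 50 counts 14 were higher at 120 min and 3204 early. A bound of 0.5 on the log2 scale gave 9206 early and 855 partial genes, and a bound of 1.5 gave 2920 and 8173. Using all ERCC sequences, or limma-voom, left every count of genes within 1.5 times.

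With 1 library left out at a time the counts ranged over 10323 to 12682, 12701 to 14607 and 14397 to 15660 genes lower and 18 to 43, 14 to 86 and 15 to 26 higher at 120, 240 and 360 min, 4794 to 5507 early, 4930 to 5723 late, 4284 to 4975 partial, 245 to 570 persistent, 3367 to 6540 faster, 92 to 369 slower, 178 to 558 different from clone 7E day 0 and 192 to 682 from clone 5F day 4. Where 1 library of 120 min remained, it was assumed to vary like the other times.

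Deviations of same-numbered libraries of different times gave correlations of -0.513 to 0.384 for replicate 1, -0.434 to -0.0648 for replicate 2 and -0.408 to 0.351 for replicate 3. Each deviation was from the mean of the 2 or 3 libraries of its time, which ties their signs. The correlations therefore cannot tell whether the numbers pair the samples. With a replicate block 17 genes were higher at 120 min, 142 slower, and the calls of Prpf40b and Zranb3 at 360 min were lost.

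Under TMM these named genes were above mock at 360 min on the log2 scale: Jund 0.28, Pou5f1 0.79, Lin28a 0.33, Bax 0.34, Zfp106 0.53, Zfp277 0.64, Rpl4 0.69, Gars 0.83, Farsa 0.39, Mcm3 0.28, Malat1 0.74, Rn7sk 0.77, Skiv2l 0.43, Dcp2 0.50, Cnot1 0.35, Calr 0.41, Pdia4 0.64 and Aven 0.70. Fitted without the mock libraries, the slope changed sign for Hist1h2ad (0.214 log2 per h), Hist1h2ac (0.118), Hist1h4f (0.146) and Zranb3 (-0.00359). Of the 81 slopes 44 more moved beyond their spread, such as Pdia4 from -0.0885 to -0.0162, Calr from -0.131 to -0.0807 and Sox2 from -0.723 to -0.578, so fitted half-lives depend on the mock libraries. Some histone slopes then rest on 13.2 or fewer scaled counts per library, and others, such as that of Hist1h1d, on more.

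The p-values cover the spread between wells of 1 clone and not the error of the shared spike-in factor of a time. The 120 min values rest on 2 libraries. Persistent means only that the interval excluded a larger fall. Fold changes of histones with few counts after the drug depend on the prior count and are no bounds.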
